A study of Rattus norvegicus with 30 samples.

Results

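Gene expression at 21 days was compared with gene expression at 7 days in repaired plantaris tendons of rats that received 6 mg/kg of GSK2894631A. The comparison holds 8 of the 30 tendons in the series, selected because their labels give this dose and 1 of these times. The 7D 6 mg/kg group had 3 tendons (replicates 1, 4 and 5) and the 21D 6 mg/kg group had 5 (replicates 1 to 5). All 8 came from 3-month-old male Sprague Dawley rats whose plantaris tendon was cut through and sutured, and all were given the compound by mouth 2 times daily until collection. The intact Achilles tendon shielded the repair from load, and the plantaris was cut below its junction with the muscle for RNA. Each tendon came from a different rat, so time was compared between animals. The later tendons were also exposed to the compound for longer, and days after surgery and days of dosing cannot be told apart. Vehicle (0 mg/kg) and 2 mg/kg tendons at both times and uninjured control tendons were used only for reference. The question was how the repair changed between 7 and 21 days under the higher dose, for skeletal muscle genes and for all other genes.

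GSK2894631A inhibits hematopoietic prostaglandin D synthase (HPGDS), the enzyme that makes prostaglandin D2 in mast cells, macrophages and some lymphocytes. A cut tendon heals through an early phase, in which leukocytes enter and fibroblasts multiply and lay down a loose matrix. A later phase follows, in which leukocytes leave and the matrix is remodelled. The plantaris tendon passes into skeletal muscle at its upper end and is surrounded by loose tissue that can hold fat and lymphatic vessels, so a dissected tendon can carry RNA of those tissues.

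RNA was sequenced from whole tendons, and the counts per gene deposited by the authors were used. Total counts were 12405741 to 49909374 in the 7D 6 mg/kg tendons and 23801990 to 43348403 in the 21D 6 mg/kg tendons, so 3 counts stood for 0.0601 to 0.242 CPM, that is, counts in every 1000000 counts of the tendon. These floors cover counting error only. Levels are given as CPM scaled by TMM, a method that corrects library sizes for composition, in the order of the replicate numbers. Tests covered 12558 of 13124 genes listed, those whose mean reached 3 CPM in any of the 7 groups. Differences were tested with edgeR's quasi-likelihood test in 1 model over all 30 tendons, with Benjamini-Hochberg adjustment over all genes tested, and a gene was called at an adjusted p under 0.05. A log2 fold change (21D over 7D) is given with its standard error (SE).

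Tendon markers were present at both times. Tnmd, which codes for tenomodulin of differentiated tendon cells, had 51.6, 154 and 101 CPM at 7 days and 117, 119.6, 315, 76.3 and 132 CPM at 21 days. The 2 groups overlapped, and the log2 fold change was 0.58 ± 0.46 (SE; adjusted p = 0.455 by edgeR's quasi-likelihood test). Scx, the tendon transcription factor scleraxis, lay between 15.4 and 53 CPM in the 8 tendons and Thbs4, a thrombospondin of tendon, between 564 and 1915 CPM. Mkx, another tendon regulator, was at or under 1.28 CPM in all 8. These 4 genes were chosen for the check after their values were seen.

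Skeletal muscle RNA differed between the 2 times. Genes of the sarcomere, the contractile unit of muscle, held 0.0304, 0.0344 and 0.0327% of the counts in the 7D 6 mg/kg tendons. They held 7.18, 9.09, 0.332, 4.98 and 0.464% in the 21D 6 mg/kg tendons. The groups did not overlap, and within the 21D group replicates 3 and 5 stood more than 10-fold below the other tendons. Uninjured control tendons ranged from 18.0 to 23.4%. Vehicle tendons ranged from 0.225 to 1.20% at 7 days and from 0.0854 to 7.37% at 21 days. For 2 mg/kg the ranges were 0.0276 to 0.0333% and 1.20 to 3.09%. In whole tendon RNA, fewer muscle cells and less RNA per muscle cell cannot be told apart, and the same holds for every cell type below.

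**Figure D1:**
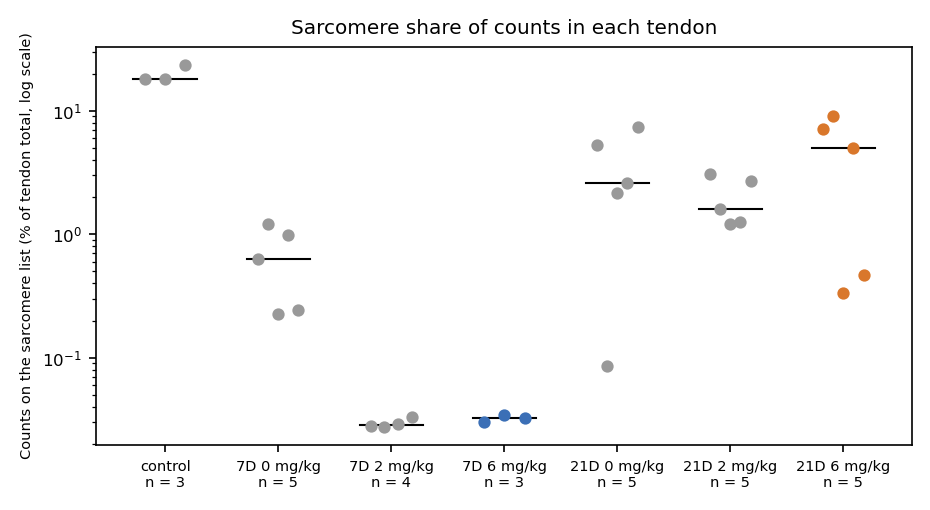
Share of each tendon's counts that fell on the sarcomere gene list (% on a log scale), with 1 point per tendon and a line at the group median. The 3 tendons of the 7D 6 mg/kg group (blue) sit at 0.0304 to 0.0344%, and the 5 tendons of the 21D 6 mg/kg group (orange) split into 3 at 4.98 to 9.09% and 2 at 0.332 and 0.464%.

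Muscle genes were therefore treated apart. A first class held the 110 tested genes on 4 muscle lists. A second class, called muscle-following, held 664 further genes that rose with the sarcomere share within groups in the 22 tendons outside this comparison (edgeR, adjusted p under 0.05). The remaining 11784 genes are called other genes. Of all genes tested, 1072 (8.54%) were called higher and 571 (4.55%) lower at 21 days. The muscle lists supplied 105 of the higher genes and none of the lower ones. Muscle-following genes supplied 443 higher genes and 1 lower gene. Among other genes, 524 (4.45%) were higher and 570 (4.84%) lower, so they made up 48.9% of the increases and all but 1 of the decreases. The muscle-following class took only genes that rose with the share, so genes that fell with it stayed among other genes. That nearly all decreases are other genes follows in part from this rule and is not a result. Changes in other genes were smaller, with a median log2 fold change of 0.68 among their increases against 7.54 among the called muscle-list genes. A change of at least 2-fold was seen for 152 of the higher and 278 of the lower other genes. For 21.4% of all genes tested the levels of the 2 groups did not overlap, with 1357 higher and 1328 lower at 21 days. This share stands beside each statement below that the groups did not overlap. With scaling by library size only, the median of all genes moved to -0.0866 and the calls became 827 higher and 799 lower, so the balance of increases and decreases rests on the scaling.

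All 4 muscle lists rose. On the sarcomere list 50 of 51 tested genes were higher and none lower, with a median log2 fold change of 8.56, where the median of all genes tested was 0.00. The list of excitation and calcium handling had 24 of 25 tested genes higher (median 6.84) and muscle energy metabolism 20 of 23 (median 7.09). All 11 tested myogenic factors and developmental myosins were higher (median 6.06). The rule for this comparison, and not the paper, set these genes apart. The lists were chosen with their increase known, so the counts describe the class and are not evidence for it.

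Myh4, the myosin heavy chain of the fastest muscle fibres (chromosome 10), had 4.25, 5.75 and 3.47 CPM in the 7D tendons and 11602, 14766, 231, 7896 and 712 CPM in the 21D tendons. Replicates 3 and 5 were the lowest at 21 days and were still far above every 7D tendon. The log2 fold change was 10.62 ± 1.59 (adjusted p = 0.00032 by edgeR's quasi-likelihood test). Mb, the oxygen store myoglobin (chromosome 7), went from 1.03, 2.42 and 1.86 CPM to 4009, 5593, 259, 2392 and 262 CPM. Myl1, a fast-fibre myosin light chain (chromosome 9), went from 2.58, 2.95 and 1.82 CPM to 6005, 7013, 278, 3653 and 251 CPM. In both, replicates 3 and 5 were again the lowest of the 21D tendons. The log2 fold change was 10.51 ± 1.63 for Mb and 10.46 ± 1.57 for Myl1.

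Several muscle genes were almost absent at 7 days, so their fold changes rest on a few counts. Smpx, a small muscle protein of the costamere, had 3 counts over the 3 tendons at 7 days and a mean of 62.4 CPM at 21 days. The ratio of the 2 levels was 2070, with a 95% exact Poisson interval of 708 to 10000 that covers the count at 7 days only. Dhrs7c, a protein of the sarcoplasmic reticulum, also had 3 counts at 7 days and a ratio of 1560 (535 to 7570). For Ppp1r3a, which targets phosphatase 1 to glycogen in muscle, 5 counts at 7 days gave a ratio of 1740 (744 to 5350). Ckmt2, the mitochondrial creatine kinase of striated muscle, had 7 counts at 7 days and 191, 413, 5.18, 156 and 2.48 CPM at 21 days, a ratio of 2180 (1060 to 5430). Members of the list of myogenic factors and developmental myosins were part of the increase. Myf6, a myogenic transcription factor, went from 0.0562, 0.0757 and 0.0304 CPM to 40.3, 74.9, 4.31, 38.4 and 3.47 CPM. The perinatal myosin Myh8 was at 0.150, 0 and 0 CPM at 7 days and at 30.9, 54.8, 2.86, 26 and 3.5 CPM at 21 days. Mean levels in uninjured control tendons were higher, at 223 CPM for Myf6 and 145 CPM for Myh8. Active muscle formation was not tested. Trdn, which codes for triadin of the calcium release complex, rose by 10.43 ± 1.51 on the log2 scale (adjusted p = 0.00032, edgeR).

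Promoter stretches of 4 of these genes are shown because the genes moved together and their promoters hold letters known from muscle gene control. The sequences are from RefSeq, build GRCr8, which differs from the rn6 build of the counts. Each is printed 5′ to 3′ on the strand of the gene and lies upstream of the transcript start. Capitals mark CAGCTG, an E-box of the kind bound by myogenic factors, in Myh4 and Ckmt2. In Ampd1, which codes for muscle AMP deaminase, and Ppp1r3a they mark CTATTTATAG or its reverse complement, which is of the MEF2 type. The stretches are at chr10:52422022-52422117 (+ strand) for Myh4, chr2:24845574-24845669 (- strand) for Ckmt2, chr2:193287126-193287225 (+ strand) for Ampd1 and chr4:43946245-43946344 (- strand) for Ppp1r3a.
Myh4: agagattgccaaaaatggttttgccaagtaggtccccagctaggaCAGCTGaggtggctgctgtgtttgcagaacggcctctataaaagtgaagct
Ckmt2: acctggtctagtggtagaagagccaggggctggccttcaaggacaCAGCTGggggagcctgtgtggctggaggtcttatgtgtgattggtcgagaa
Ampd1: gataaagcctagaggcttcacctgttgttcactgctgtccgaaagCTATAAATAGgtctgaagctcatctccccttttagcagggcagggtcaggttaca
Ppp1r3a: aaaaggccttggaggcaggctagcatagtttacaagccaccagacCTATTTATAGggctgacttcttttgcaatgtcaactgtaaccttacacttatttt

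Both motifs were searched on both strands of the 300-base window around each start, and they share no overlapping letters. Of the 105 muscle-list genes called higher, 84 had a promoter entry, and 35 of these (41.7%) held CAGCTG. The share was 15.8% of 8880 promoters of tested other genes and 15.1% of all 27457 promoters. CTATTTATAG was found in 3 of the 84, namely Ampd1, Clcn1 and Ppp1r3a, and in 0.146% of all promoters. Its letters were read from the Ppp1r3a promoter, so the match in that gene was certain and does not count against this share. Of the 39 promoters of called sarcomere genes, 0 held CTATTTATAG. The motifs were chosen after these promoters had been looked at, and a match is a description of the letters and not of a bound site.

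The 2 tendons at 21 days with little muscle RNA were also compared alone with the 7D tendons, a choice made after seeing the data. The sarcomere list then had a median log2 fold change of 4.86 and 24 of its genes remained called. Myh4 was 6.73 and Myl1 6.76 higher on the log2 scale (adjusted p = 0.00492 for both, edgeR). Among other genes, 73 were called higher and 16 lower with these 2 tendons. When the log2 sarcomere share of each tendon was entered as a covariate, 71 higher and 19 lower other genes were called, of which 38 and 9 were also called without it. Of the 107 named genes, 24 stayed on the same side of the threshold with the same sign, 71 lost their call and 12 changed sign. The sarcomere shares of the 2 groups do not overlap. The covariate fit separates time from muscle content only through a common slope on the share within the 7 groups, applied across that gap. Called under both conditions were 27 of the 524 higher other genes and 7 of the 570 lower ones, among them Mmp16, Ntn4, Cd55, Mgp and Tppp3 (higher) and Sfrp2, Spib and Rnase2 (lower), of which Mgp, Tppp3, Sfrp2 and Rnase2 were picked after their values were seen. Of the 1094 called other genes, 1091 kept their sign with the 2 tendons of low share and 999 with the covariate. The genes were called from these same tendons, so a kept sign is largely given in advance and is no separate check. With 2 tendons at 21 days, a lost call cannot separate muscle content from the smaller number of tendons. The part of muscle content in the remaining calls among other genes was not tested beyond these fits.

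**Figure D2:**
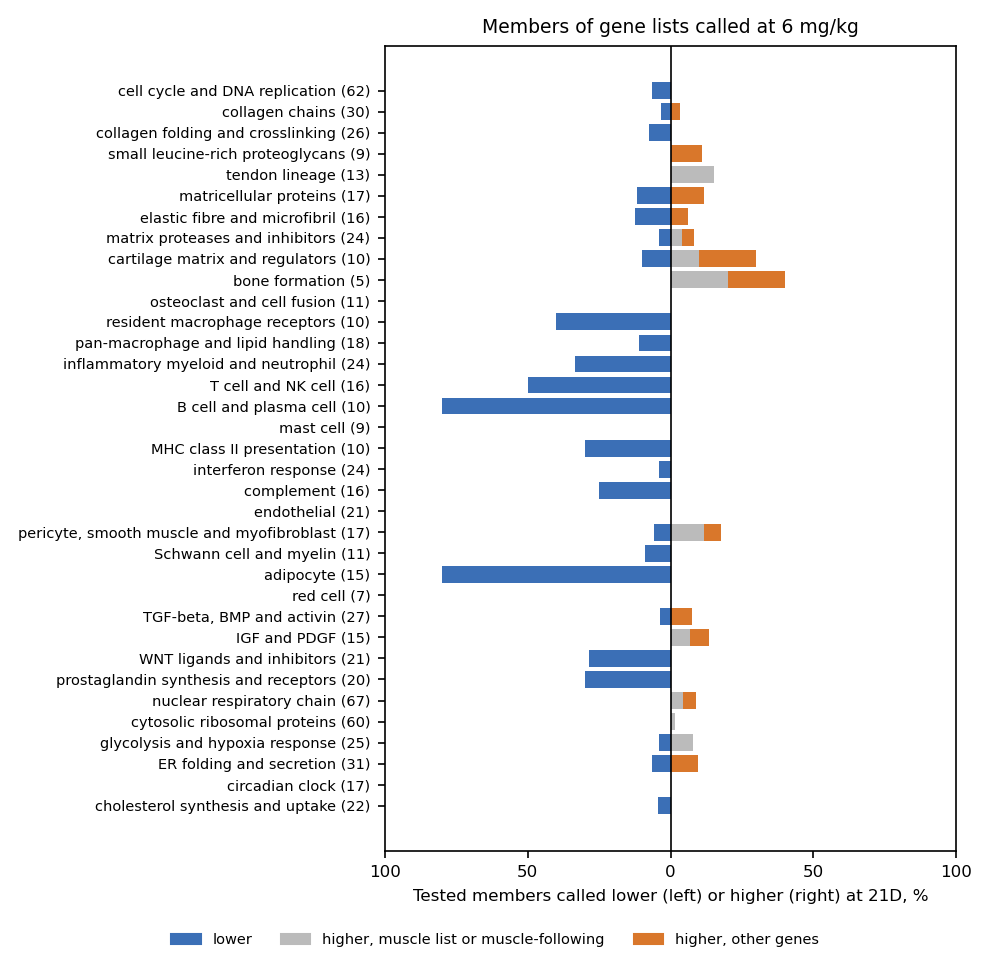
Share of the tested members of each gene list that were called lower (blue, to the left) or higher (to the right) at 21 days, with the number of tested members in brackets. Increases are grey for muscle-list and muscle-following genes and orange for other genes, and the adipocyte list (12 of 15) and the B cell list (8 of 10) have the longest bars.

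Few extracellular matrix genes were called. Of 30 collagen chains tested, 1 was higher and 1 lower, where 8.54% and 4.55% of all genes were, and their median log2 fold change was -0.05. Summed over the list, collagen chains made 97347 to 104944 CPM at 7 days and 71870 to 91900 CPM at 21 days, so the sum was lower in every 21D tendon. Col13a1, a transmembrane collagen of cell adhesion sites, had 1.09, 3.18 and 3.38 CPM at 7 days and 11.6, 9.86, 10.1, 9.32 and 16.5 CPM at 21 days. The groups did not overlap, as for 21.4% of all genes tested (2.20 ± 0.48 on the log2 scale, adjusted p = 0.00376 by edgeR's quasi-likelihood test). Col12a1, a fibril-associated collagen that was chosen after its values were seen, went the other way, from 1106, 1709 and 1257 CPM to 621, 487, 886, 613 and 562 CPM (-1.10 ± 0.37, adjusted p = 0.0487, edgeR). Its call was lost when any tendon but 21D replicate 3 was left out (adjusted p up to 0.202). The main fibrillar chains Col1a1 (-0.48 ± 0.32, adjusted p = 0.353) and Col3a1 (-0.24 ± 0.26, adjusted p = 0.606) did not pass the edgeR test and were chosen after their values were seen.

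Matricellular proteins, which act on cells without forming fibres, had 2 of 17 members higher and 2 lower, against 8.54% and 4.55% of all genes. Nov, also known as CCN3, had 226, 343 and 263 CPM in the 7D tendons and 956, 992, 1050.5, 1143 and 875 CPM in the 21D tendons. Every 21D tendon was above every 7D tendon by at least 2-fold, including those with little muscle RNA (1.86 ± 0.32, adjusted p = 0.000661, edgeR). Fap, a surface protease of activated fibroblasts, was higher by 0.70 ± 0.19 on the log2 scale (adjusted p = 0.016, edgeR), a call that was lost without 7D replicate 1 (adjusted p = 0.11). Tnc, the gene of tenascin C, which is laid down early in wounds, fell from 675, 941 and 832 CPM to 232, 152, 252, 394 and 163 CPM. The groups did not overlap (-1.77 ± 0.45, adjusted p = 0.0103, edgeR). The Tnc call was lost with the sarcomere share as a covariate (-1.33, adjusted p = 0.402, edgeR). It was also lost in the 2 tendons with little muscle RNA (-1.98, adjusted p = 0.142, edgeR). Tnn, which codes for the related tenascin N, fell from 1093, 991 and 1004 CPM to 449.6, 361, 392, 609 and 376 CPM (adjusted p = 0.0384, edgeR), and its adjusted p reached 0.11 when 1 tendon was left out. Tnc and Tnn were chosen after their values were seen.

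Among proteases and their inhibitors 2 of 24 tested genes were higher and 1 lower, against 8.54% and 4.55% of all genes. Mmp16, a membrane-anchored matrix metalloproteinase (chromosome 5), had 6.55, 11.3 and 8.42 CPM at 7 days and 30.9, 41.2, 43.3, 43.2 and 47.9 CPM at 21 days. All 5 tendons at 21 days were above all 3 at 7 days, and the 2 with little muscle RNA were the highest and second highest (2.25 ± 0.32, adjusted p = 0.00032, edgeR). With the sarcomere share as a covariate its log2 difference was 2.49 (adjusted p = 0.00312, edgeR). The other increase was Mmp15, a muscle-following gene (0.80 ± 0.27), whose call was lost when any tendon but 21D replicate 3 or 5 was left out (adjusted p up to 0.172). Timp1, an inhibitor of metalloproteinases chosen after its values were seen, fell from 329, 349.8 and 530.0 CPM to 197, 198, 224, 257 and 243 CPM (-0.85 ± 0.27, adjusted p = 0.0349, edgeR). The Timp1 call was lost without any of the 3 tendons at 7 days or without 21D replicate 1 or 2, with adjusted p up to 0.232.

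Of 9 small leucine-rich proteoglycans 1 was higher and none lower. Of 10 cartilage matrix genes and regulators 3 were higher and 1 lower, where 8.54% and 4.55% of all genes were. The increases were Matn2, Matn4 and the muscle-following transcription factor Sox6, which was at -2.59 with the sarcomere share as a covariate. The decrease was Pth1r, a receptor of parathyroid hormone named after its values were seen (-0.80 on the log2 scale). Kera, the small leucine-rich proteoglycan keratocan, had 40.8, 168 and 60.6 CPM at 7 days and 435, 232, 394, 172 and 288 CPM at 21 days. The highest 7D tendon and the lowest 21D tendon nearly met, and the call (1.76 ± 0.50, adjusted p = 0.0207, edgeR) was lost without 7D replicate 1 or 5 (adjusted p up to 0.123). The matrilins are adaptor proteins of cartilage and loose matrix. Matn2 rose from 75.8, 143 and 111 CPM to 223, 340.1, 353, 417 and 413 CPM (1.67 ± 0.41, adjusted p = 0.00749, edgeR). Its call, for a gene chosen after its values were seen, was lost without 7D replicate 1 (adjusted p = 0.0613). For Matn4 the levels were 10, 13.3 and 8.42 CPM and then 25.8, 24.3, 68.6, 19.7 and 33.2 CPM, with 21D replicate 3 far above the other tendons (adjusted p = 0.0436, edgeR; up to 0.161 when 1 tendon was left out).

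Elastic fibre genes moved both ways, with 1 of 16 higher and 2 lower, against 8.54% and 4.55% of all genes. Ltbp4, a binding protein of latent TGF-β that was chosen after its values were seen, rose from 172, 149 and 267 CPM to 372, 565, 397, 486 and 466 CPM (1.22 ± 0.23, adjusted p = 0.00138, edgeR). Emilin1, an elastic fibre glycoprotein, fell from 146, 140.1 and 151 CPM to 57.0, 69.2, 91.2, 72.7 and 75.7 CPM (-0.996 ± 0.24, adjusted p = 0.00643, edgeR). With the sarcomere share as a covariate its log2 difference was -0.16 (adjusted p = 0.839, edgeR). Efemp2, which helps elastic fibres to assemble, fell by 0.57 on the log2 scale, with its call lost without 7D replicate 5 (adjusted p = 0.0778, edgeR). Genes of collagen folding and crosslinking had 2 of 26 members lower, P4hb (-0.39 ± 0.12) and Colgalt1 (-0.45 ± 0.13), and none higher, against 4.55% of all genes lower. The P4hb call was lost when any tendon but 21D replicate 3 or 5 was left out (adjusted p up to 0.139). Colgalt1 lost its call without 7D replicate 4 or 5 or 21D replicate 2 (adjusted p up to 0.0724). Eya1, a transcription cofactor on the tendon lineage list that also acts in developing muscle, was muscle-following. It had no count in any 7D tendon and 3.77, 3.42, 0, 3.73 and 0.212 CPM at 21 days. The groups overlapped at 0, and the call (adjusted p = 0.013, edgeR) was lost without 7D replicate 1 or 5 (adjusted p up to 0.0733).

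**Figure D3:**
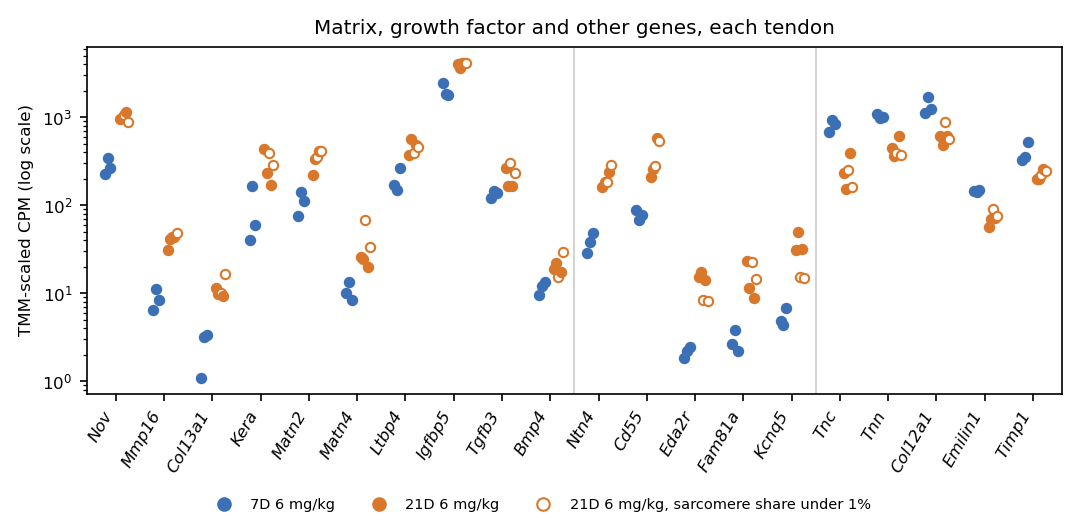
Level of 20 genes in each tendon (TMM-scaled CPM on a log scale), with 7D 6 mg/kg tendons in blue, 21D 6 mg/kg tendons in orange and open orange circles for the 2 tendons at 21 days with a sarcomere share under 1%. In the left and middle panels the 21D tendons lie above the 7D tendons, as for Mmp16 (30.9 to 47.9 against 6.55 to 11.3 CPM), and in the right panel they are lower.

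Some signalling genes changed as well. Igfbp5, a binding protein of insulin-like growth factors, had 2445, 1834 and 1816 CPM at 7 days and 4059, 3659, 4165, 4122 and 4088 CPM at 21 days. The groups did not overlap (0.98 ± 0.24, adjusted p = 0.00796, edgeR), and the call was just lost without 7D replicate 4 or 5 (adjusted p up to 0.0516). Igf2, a growth factor of muscle and connective tissue, rose by 2.20 ± 0.56 on the log2 scale and was muscle-following, with its call lost without 7D replicate 1 (adjusted p = 0.0764, edgeR). Tgfb3, a TGF-β ligand (0.74 ± 0.24, adjusted p = 0.0377), and Bmp4, a bone morphogenetic protein (0.82 ± 0.26, adjusted p = 0.0375), were higher by edgeR's test, and adjusted p reached 0.149 and 0.173 when 1 tendon was left out.

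WNT ligands and inhibitors had 6 of 21 tested members lower and none higher, where 4.55% of all genes were lower. Sfrp2, a secreted WNT modulator of fibroblasts chosen after its values were seen, had 368, 361 and 356 CPM at 7 days and 91.7, 68.5, 116, 113 and 65.8 CPM at 21 days. The 7D tendons were tightly grouped and all above the 21D tendons (-1.99 ± 0.34, adjusted p = 0.000615, edgeR). The log2 difference was -2.24 with the sarcomere share as a covariate (adjusted p = 0.0433, edgeR). Frzb, another secreted inhibitor, fell from 11.6, 6.36 and 6.66 CPM to 0.931, 1.51, 2.40, 1.57 and 0.849 CPM (-2.50 ± 0.48, adjusted p = 0.00138, edgeR). Lef1, a nuclear effector of WNT signalling that lymphocytes also express, fell by 2.05 on the log2 scale (adjusted p = 0.02, edgeR), and by a call that was lost without 7D replicate 1 or 4 or 21D replicate 2 (adjusted p up to 0.0784).

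Among other genes with at least 10 CPM at 21 days and no overlap of the groups, those with the largest increases had varied functions. Ntn4, the laminin-related protein netrin 4 (chromosome 7), had 28.9, 38.3 and 48.2 CPM at 7 days and 163, 186, 183, 237 and 284 CPM at 21 days. Each 21D tendon was at least 3-fold above each 7D tendon (2.45 ± 0.39, adjusted p = 0.00036, edgeR). Cd55, a surface protein that holds complement back and that marks lining fibroblasts of loose tissue, went from 88.1, 68.4 and 78.0 CPM to 209.8, 259.9, 280.3, 576 and 533 CPM (2.25 ± 0.46, adjusted p = 0.00225, edgeR). Fam81a (2.50 ± 0.43) was also higher in every 21D tendon, from 2.19 to 3.86 CPM at 7 days to 8.91 to 23.1 CPM at 21 days. For 3 of the genes the tendons with little muscle RNA were the lowest of the 21D group. Ppm1j, a protein phosphatase, had 15.6, 16.9, 2.86, 11.4 and 3.25 CPM at 21 days and 1.18 to 1.61 CPM at 7 days. Eda2r, a receptor of the TNF family, had 15.2, 17.4, 8.33, 14.2 and 8.24 CPM against 1.85 to 2.43 CPM. Kcnq5, a potassium channel, had 31.0, 49.6, 15.3, 31.6 and 14.9 CPM against 4.39 to 6.90 CPM. None of these 3 was called by edgeR with the sarcomere share as a covariate. Their log2 differences were then 0.45 for Ppm1j (adjusted p = 0.761), 1.73 for Eda2r (adjusted p = 0.0822) and 0.88 for Kcnq5 (adjusted p = 0.329). Cdhr1, a cadherin-related protein, completed the group (2.21 ± 0.66, adjusted p = 0.0275, edgeR), and its adjusted p reached 0.11 when 1 tendon was left out.

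Adipocyte genes fell together. Of 15 tested genes 12 were called lower and none higher, with a median log2 fold change of -1.91, where 4.55% of all genes were lower. Adipoq, the fat cell hormone adiponectin (chromosome 11), had 718, 216 and 265 CPM at 7 days and 80.3, 28.9, 78.2, 49.4 and 34.5 CPM at 21 days. The groups did not overlap, and 7D replicate 1 was about 3-fold above the other 7D tendons (-2.88 ± 0.61, adjusted p = 0.00283, edgeR). Lep, the hormone leptin, went from 100.1, 20.7 and 26.3 CPM to 8.42, 3.10, 6.46, 5.50 and 1.13 CPM (-3.33 ± 0.86, adjusted p = 0.0114, edgeR). Acvr1c, an activin receptor of fat cells, fell by 3.92 on the log2 scale and the complement factor Cfd, also called adipsin, by 1.91.

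Of the 8 other genes with the largest decreases among those with at least 10 CPM at 7 days and no overlap of the groups, Lep, Adipoq, Slc7a10, Bche and Tmem179 were all highest in 7D replicate 1. Spib, described below, was also highest there, though only just (15.4 CPM against 15.1 CPM in 7D replicate 4). Slc7a10, an amino acid carrier, had 40.0, 13.4 and 15.9 CPM at 7 days and 1.49 to 3.73 CPM at 21 days, and Bche, the enzyme butyrylcholinesterase, had 19.1, 9.31 and 6.90 CPM against 1.10 to 1.99 CPM. Summed over the list, adipocyte genes made 3832, 1874 and 1983 CPM at 7 days and 612 to 932 CPM at 21 days. Without 7D replicate 1 only 3 of the 15 genes remained called. Lep then had an adjusted p of 0.131, and Adipoq kept its call (adjusted p up to 0.0423 over the tendons left out). In the 2 tendons with little muscle RNA the median of the list was -1.99, with no gene called.

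B cell genes fell by more than any other list outside muscle, with a median log2 fold change of -2.72 and 8 of 10 tested genes called lower, against 4.55% of all genes. Cd79b, a chain of the B cell receptor (chromosome 10), had 13.5, 17.9 and 5.84 CPM at 7 days and 1.48, 1.39, 2.78, 0.460 and 0.389 CPM at 21 days. The groups did not overlap (-3.26 ± 0.89, adjusted p = 0.0167, edgeR). Fcer2, the low-affinity IgE receptor of B cells, fell from 4.40, 5.07 and 2.07 CPM to 0.161 to 0.870 CPM (-3.16 ± 0.92), with its call lost without 7D replicate 1 or 4 or 21D replicate 2 or 4 (adjusted p up to 0.0762). Spib, a transcription factor of B cells and plasmacytoid dendritic cells, had 15.4, 15.1 and 9.79 CPM at 7 days and 1.65, 0.870, 2.86, 1.96 and 1.87 CPM at 21 days (-2.87 ± 0.44, adjusted p = 0.000338, edgeR). Spib kept its call whichever tendon was left out and with the sarcomere share as a covariate (-3.01, adjusted p = 0.0382, edgeR). The list was less stable: its count dropped to 1 without 7D replicate 4, to 3 without 7D replicate 1 or 21D replicate 2, to 4 without 21D replicate 4 and to 5 without 21D replicate 1. Cd79b was not called without 7D replicate 1 or 4 (adjusted p up to 0.0682).

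T cell and NK cell genes had 8 of 16 tested members lower and none higher (median -1.49), where 4.55% of all genes were lower. Cd8a, the coreceptor of cytotoxic T cells (chromosome 4), had 22.9, 24.2 and 23.5 CPM at 7 days and 3.17, 3.77, 7.50, 4.95 and 4.92 CPM at 21 days. The 7D tendons were nearly equal, and each was at least 3-fold above each 21D tendon (-2.27 ± 0.31, adjusted p = 0.000275, edgeR). Cd3g, a chain of the T cell receptor complex, fell from 9.25, 9.92 and 9.34 CPM to 1.65, 2.09, 3.77, 3.27 and 3.32 CPM (-1.75 ± 0.38, adjusted p = 0.00379, edgeR). Both kept their calls whichever tendon was left out, while the count for the list ranged from 3 (without 7D replicate 1) to 12 (without 21D replicate 3), with 4 without 7D replicate 4 or 5 or 21D replicate 2 and 5 without 21D replicate 1. Neither was called with the sarcomere share as a covariate. Cd8a was then at -1.62 (adjusted p = 0.083, edgeR) and Cd3g at -1.54 (adjusted p = 0.227, edgeR). In the 2 tendons with little muscle RNA Cd8a was called (adjusted p = 0.0245, edgeR) and Cd3g was not (adjusted p = 0.204, edgeR).

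Genes of inflammatory myeloid cells and neutrophils had 8 of 24 tested members lower and none higher (median -1.35), where 4.55% of all genes were lower. With the sarcomere share as a covariate the median of the list was 0.26 and no member was called. Lcn2, the neutrophil protein lipocalin 2 (chromosome 3), had 17.0, 14.0 and 49.3 CPM at 7 days and 4.83, 2.61, 4.39, 2.53 and 2.87 CPM at 21 days (-2.97 ± 0.51, adjusted p = 0.000655, edgeR). Cxcr2, the main chemokine receptor of neutrophils, fell from 2.10, 5.0 and 1.73 CPM to 0.106 to 0.506 CPM (-3.00 ± 0.70), with its call lost without 7D replicate 4 (adjusted p = 0.0507, edgeR). The count for the list was 2 without 7D replicate 4 or 21D replicate 2, 3 without 21D replicate 4 and 4 without 7D replicate 1 or 5 or 21D replicate 1.

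Macrophage genes fell less evenly. Resident macrophage receptors had 4 of 10 tested members lower, where 4.55% of all genes were. Cd163, a scavenger receptor for hemoglobin, had 153, 104 and 234 CPM at 7 days and 35.4, 61.2, 69.9, 60.2 and 48.4 CPM at 21 days (-1.57 ± 0.51, adjusted p = 0.04, edgeR). Cd209f, a lectin receptor, had 9.62, 4.09 and 2.04 CPM against 0.106 to 0.713 CPM (-3.66 ± 0.83, adjusted p = 0.00491, edgeR). Neither call was held by every set of 7 tendons, with adjusted p up to 0.2 for Cd163 and 0.0567 for Cd209f, and the list had no called gene without 7D replicate 1. Of 18 genes of all macrophages and of lipid handling, 2 were lower, Adgre1 (-1.33 ± 0.40) and Abcg1 (-0.94 ± 0.28), against 4.55% of all genes. Both calls were lost without 5 of the 8 tendons in turn. These were 7D replicates 1 and 5 and 21D replicates 1, 2 and 5 for Adgre1 (adjusted p up to 0.132) and all 7D tendons and 21D replicates 1 and 2 for Abcg1 (adjusted p up to 0.0842). No osteoclast gene of 11 passed the test in either direction.

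Complement had 4 of 16 tested genes lower, where 4.55% of all genes were. C3, the central component, fell from 90.3, 61.7 and 108 CPM to 10.8, 7.33, 27.3, 24.5 and 15.8 CPM (-2.34 ± 0.41, adjusted p = 0.000662, edgeR) and kept its call whichever tendon was left out. The C3 call was lost with the sarcomere share as a covariate (-1.46, adjusted p = 0.248, edgeR). It was also lost in the 2 tendons with little muscle RNA (adjusted p = 0.0546, edgeR). Of 10 genes of MHC class II presentation 3 were lower, among them Ciita, the master regulator of the class II genes (-1.11 ± 0.31), and RT1-DOb (-1.12 ± 0.35). Ciita lost its call without 7D replicate 1 or 4 or 21D replicate 1 (adjusted p up to 0.078), and RT1-DOb when any tendon but 7D replicate 5 or 21D replicate 3 was left out (adjusted p up to 0.134). The median of the list was -0.66, and 0.09 with the sarcomere share as a covariate. Of 24 interferon response genes only Irf9 was lower (-0.44 ± 0.14, adjusted p = 0.0428, edgeR), and its call was lost when any tendon but 21D replicate 2 or 4 was left out (adjusted p up to 0.13). No gene was called among 9 mast cell genes, 21 endothelial genes and 7 red cell genes by edgeR, and their medians were -0.48, -0.31 and -0.80.

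**Figure D4:**
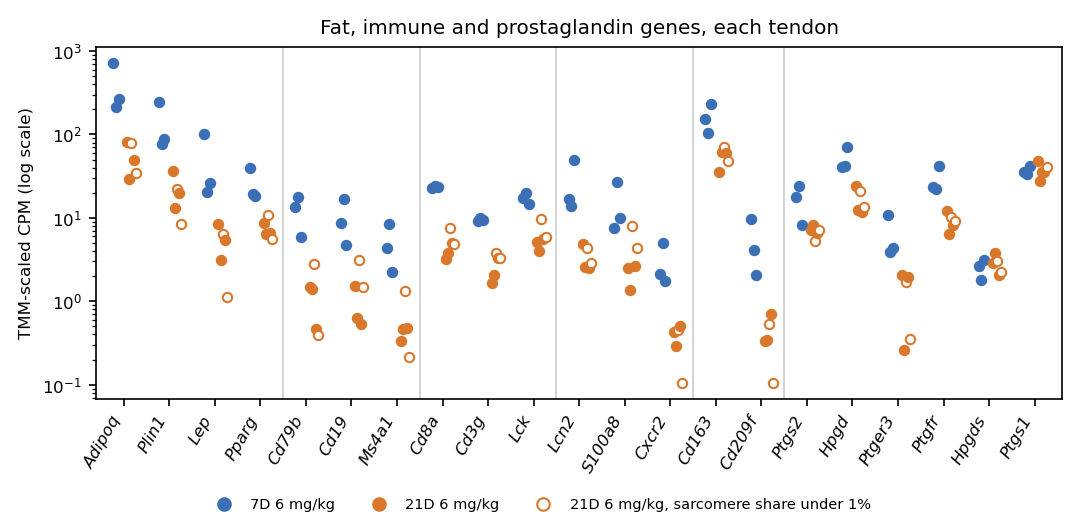
Level of 21 genes of fat cells, B cells, T cells, neutrophils, macrophages and prostaglandin metabolism (panels from left to right) in each tendon, as TMM-scaled CPM on a log scale, with colours for the groups as marked. For Adipoq, Cd79b, Cd8a and Lcn2 all 5 orange points lie below all 3 blue points, and for Hpgds and Ptgs1 the colours overlap.

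The prostaglandin list held the target of the compound. Hpgds itself had 2.64, 1.82 and 3.10 CPM at 7 days and 2.88, 3.80, 3.07, 2.05 and 2.23 CPM at 21 days. The groups overlapped (0.14 ± 0.51, adjusted p = 0.9, edgeR). The compound acts on the enzyme, so this level says nothing about its activity. Ptgs1, which codes for the constitutive cyclooxygenase, had 33.2 to 42.1 CPM at 7 days and 27.7 to 48.4 CPM at 21 days (adjusted p = 0.959, edgeR). Ptges, which makes prostaglandin E2, had 22.3 to 33.3 CPM and 18.7 to 26.3 CPM (-0.37 ± 0.24, adjusted p = 0.353, edgeR).

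In the same list 6 of 20 tested genes were lower and none higher, where 4.55% of all genes were lower. Ptgs2, the inducible cyclooxygenase (chromosome 13), had 18.0, 24.3 and 8.21 CPM at 7 days and 7.07, 8.23, 5.26, 6.56 and 7.18 CPM at 21 days. One 7D tendon fell within the 21D range, and the call (-1.29 ± 0.39, adjusted p = 0.0308, edgeR) was lost without 7D replicate 1 or 4 or 21D replicate 1, 3 or 4 (adjusted p up to 0.201). Ptgfr, the receptor of prostaglandin F2α, fell from 23.1, 22.4 and 41.5 CPM to 11.9, 6.46, 10.2, 8.12 and 9.20 CPM (-1.66 ± 0.33, adjusted p = 0.00169, edgeR) and kept its call whichever tendon was left out. The Ptgfr call was lost with the sarcomere share as a covariate (-1.61, adjusted p = 0.132, edgeR). It was also lost in the 2 tendons with little muscle RNA (adjusted p = 0.0886, edgeR). Ptger3, a prostaglandin E2 receptor that fat cells also express, fell from 10.9, 3.94 and 4.35 CPM to 0.261 to 2.07 CPM (-2.34 ± 0.69, adjusted p = 0.0267, edgeR), and its adjusted p was up to 0.191 when 7D replicate 1 or 21D replicate 2 or 5 was left out. Hpgd, which degrades prostaglandins and was chosen after its values were seen, fell from 40.2, 41.6 and 71.6 CPM to 11.8 to 24 CPM (-1.64 ± 0.43, adjusted p = 0.0127, edgeR), with its call lost without 7D replicate 5 (adjusted p = 0.0955).

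Cell division genes changed little. Of all genes tested 8.54% were higher and 4.55% lower, which stands beside each list count in this paragraph. Of 62 tested genes 4 were lower and none higher (median -0.28), with Ccne1, the cyclin of entry into DNA replication, at 5.17 to 7.12 CPM at 7 days and 2.28 to 3.85 CPM at 21 days (-0.98 ± 0.20, adjusted p = 0.00269, edgeR). Mcm3, a subunit of the replication helicase, fell by 0.74 on the log2 scale, with its call lost without 7D replicate 1 or 4 or 21D replicate 2 or 4 (adjusted p up to 0.0787). Mcm3 was at -0.031 with the sarcomere share as a covariate (adjusted p = 0.971, edgeR). The median of the cell division list was 0.096 in that fit, with no member called. Bone formation genes had 2 of 5 tested members higher. Mepe was muscle-following and Dmp1 had 0.243 to 0.730 CPM at 7 days and 0.704 to 3.22 CPM at 21 days (adjusted p = 0.0443, edgeR), and neither call held for every tendon left out. Of 17 genes of pericytes and smooth muscle 3 were higher and 1 lower, with a median of -0.50. Des and Synpo2 rose, and both also belong to skeletal muscle. Cspg4, a pericyte proteoglycan named after its values were seen, was the other increase (0.78 on the log2 scale). The decrease was Notch3, a receptor of mural cells also named after its values were seen (-1.07 on the log2 scale). Ngfr was the only one of 11 Schwann cell genes that was lower (-1.26 ± 0.37), and its call was lost when any tendon but 21D replicate 1, 3 or 5 was left out (adjusted p up to 0.129).

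The same change with time was measured in tendons from rats given 0 and 2 mg/kg, which share no tendon with this comparison. Between 21 and 7 days 2.88% of genes were called higher and 2.47% lower at 0 mg/kg, while the shares at 2 mg/kg were 7.09% and 5.98%. Of the 524 other genes that were higher at 6 mg/kg, 179 were also called higher at 0 mg/kg, which is 34.2% of the first list and 71.6% of the 250 other genes higher at 0 mg/kg. At 2 mg/kg 215 were shared, 41.0% of the first list and 37.8% of 569. Of the 570 lower ones, 173 were shared with 0 mg/kg (30.4% and 55.8% of 310) and 250 with 2 mg/kg (43.9% and 33.6% of 744). No gene was called in opposite directions. Mmp16 and Ntn4 rose at both other doses too, by 1.68 and 1.58 on the log2 scale with vehicle, and by 2.01 and 2.05 with 2 mg/kg.

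The number of fat and B cell genes called differed between the doses. At 2 mg/kg 13 of the 15 adipocyte genes were lower (median -2.32), and at 0 mg/kg none was (median -0.83). No B cell gene was called lower at 0 mg/kg (median -0.54) or 2 mg/kg (median -0.89), and 1, Jchain of plasma cells, named after its values were seen, was called higher at 2 mg/kg (2.47 on the log2 scale). Cd79b had 12.4 ± 6.09 CPM (SD, n = 3) at 7 days with 6 mg/kg. The vehicle group had 4.53 ± 3.81 CPM (n = 5) and the 2 mg/kg group 3.44 ± 3.27 CPM (n = 4) at that time. At 21 days the means were 1.30 ± 0.969 CPM with 6 mg/kg, 3.20 ± 1.92 CPM with vehicle and 1.79 ± 1.45 CPM with 2 mg/kg (n = 5 each). The difference in time change between the doses was tested itself. It was not past the threshold for any adipocyte or B cell gene, and for Cd79b the adjusted p was 0.728 against 2 mg/kg (edgeR).

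**Figure D5:**
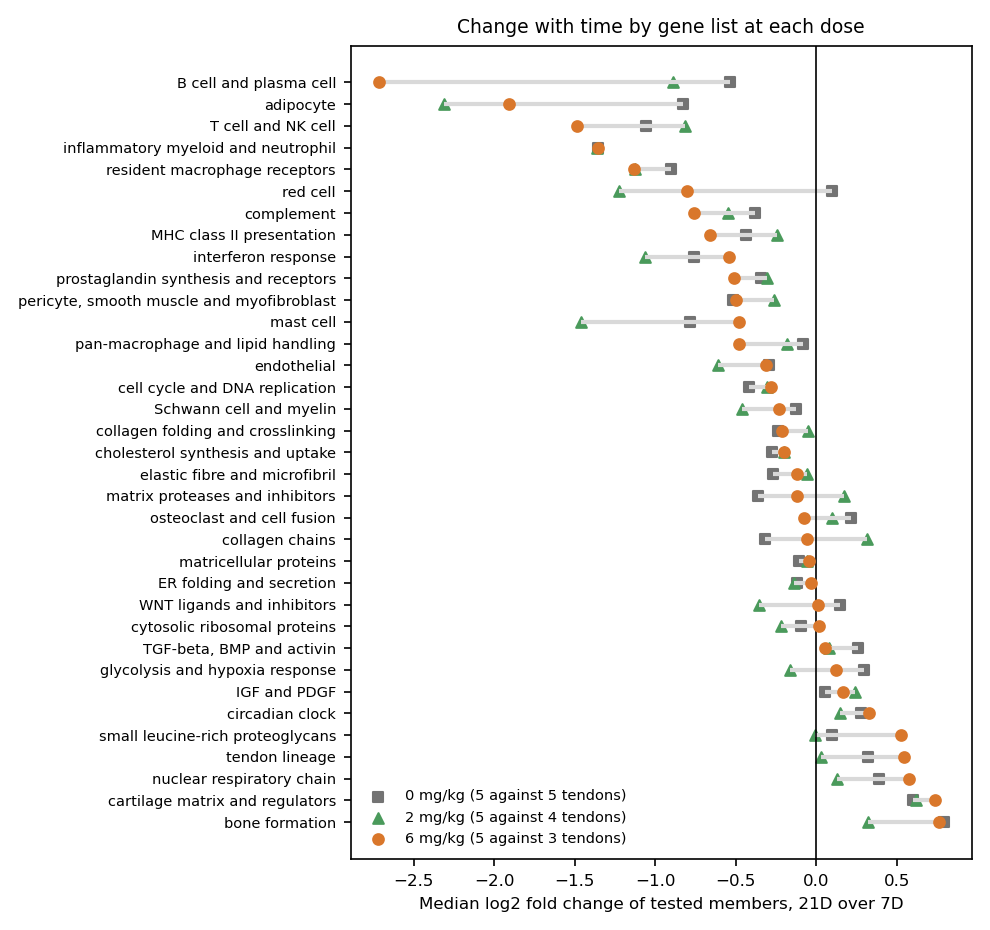
Median log2 fold change (21D over 7D) of the tested members of each list outside muscle at 0 mg/kg (grey squares), 2 mg/kg (green triangles) and 6 mg/kg (orange circles). The medians at 6 mg/kg run from -2.72 for B cell genes to 0.76 for bone formation genes, and those of inflammatory myeloid genes lie within -1.36 to -1.35 at the 3 doses.

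Over all genes, the change with time differed from that at 0 mg/kg for 30 genes (0.239% of those tested), all with a larger increase at 6 mg/kg. The muscle lists held 26 of them and 3 were muscle-following. Actn2, the actinin of the Z-disc, had 0.365 to 0.711 CPM at 7 days and 29.2 to 1454 CPM at 21 days at 6 mg/kg. In 0 mg/kg tendons its means were 70.1 ± 36.3 CPM at 7 days and 413 ± 279 CPM at 21 days (SD, n = 5 each). The difference of the log2 fold changes was 7.54 (adjusted p = 0.0331, edgeR). Ampd1 (8.14) and Ankrd23 (6.64), an ankyrin repeat protein of the sarcomere, had the same adjusted p. The only other gene was Igfn1, an immunoglobulin-like protein that is also expressed in skeletal muscle, named after its values were seen. It had 1 count over the 3 tendons at 7 days and 9.36, 6.78, 2.15, 12.5 and 3.25 CPM at 21 days. The 30 calls rest on single tendons, since none was left without 7D replicate 1, 4 or 5 or 21D replicate 1, 2 or 4, and 60 and 69 were made without 21D replicates 5 and 3. Against 2 mg/kg no gene was called by edgeR (866 at an unadjusted p under 0.05) or by DESeq2 (1046 at an unadjusted p under 0.05).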

How the data were processed

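RNA sequencing data of plantaris tendons from 30 rats were used. Labels gave time and dose, with 5 tendons in the 21D 6 mg/kg group and 3 in the 7D 6 mg/kg group. After trimming (fastp) and mapping to rn6 (STAR, Ensembl annotation), the authors deposited raw counts per gene. Strand use in counting was not given in the sources used here, so overlapping and antisense genes cannot be told apart, and near-identical genes may share reads. The authors also deposited a table of their comparisons (log2 fold changes, p-values, FDR and average log2 CPM), and none of these values was used. The same table gave gene identifiers, chromosomes and, as another deposited value, gene width. Replicates are separate rats. The labels give 3 tendons for 6 mg/kg at 7 days, the methods imply 4, and the labels were followed. Total counts on listed genes set the depth, and reads copied by PCR without identifiers do not stand for separate molecules.

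The filter kept 12558 of 13124 genes, those whose mean reached 3 CPM in any of 7 groups. Tests were run with edgeR 4.0.16 (R 4.3.3). One quasi-likelihood model with a mean per group was fitted to all 30 tendons with TMM scaling. SEs are the log2 fold change over the square root of F. A ratio with few counts at 7 days has an exact Poisson interval (95%) of that count. The steps were tested on simulated data. The members, lists and tests were chosen with earlier results of these data known.

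Named genes were the 6 muscle-list genes with the largest increase, the 8 other genes that rose most and the 8 that fell most (groups not overlapping, at least 10 CPM in the higher group, unnamed features skipped), the 2 called members of each of 39 lists with the largest change in the list's main direction, Hpgds, Ptgs1, Ptgs2 and Ptges, and, by smallest adjusted p, 3 genes in each difference between doses. A result that the rule would name is not reported here. Other genes are marked as chosen after their values were seen. No pair of tendons in either group was nearer than a chi-square of 29.6 per gene, so none was a duplicate. Alternatives were RLE or library size scaling, TMM without muscle genes, other filters, a fit of 8 tendons, a replicate block, DESeq2 1.42.0, the likelihood ratio test, the sarcomere share as a covariate, a fold threshold of 1.5, leaving out each tendon and, added after seeing the data, only the 21D tendons with a share under 1%.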

Additional observations from a re-analysis of the deposited data

Results flagged for a closer look

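Among 107 named genes examined in the 5 tendons at 21 days, 4 had a tendon that stood apart by Dixon's criterion (critical value 0.71), where chance marks about 1 in 20 groups. In 3 of them it was replicate 3, 1 of the 2 tendons with little muscle RNA. Matn4 was at 68.6 CPM there and at 33.2 CPM or less in the other 21D tendons, Tnmd at 315 CPM against 132 CPM or less, and the B cell gene Ms4a1 at 1.33 CPM against 0.483 CPM or less. The Igfbp5 level of replicate 2 was low, at 3659 CPM, with the nearest tendon at 4059 CPM. The rise from 7 to 21 days was larger at 6 mg/kg than at 0 mg/kg in edgeR's test of the difference itself for 9 named genes, 8 of them on muscle lists. The differences of the log2 fold changes were 8.24 for Myh4 and for Trdn, 8.14 for Ampd1, 7.89 for Myl1, 7.54 for Actn2, 6.64 for Ankrd23 and 9.36 for Igfn1 (adjusted p = 0.0331 for each), and 7.67 for Myf6 and 7.13 for Mb (adjusted p = 0.0484 for each). The sarcomere share of the 7D tendons was 0.225 to 1.20% at 0 mg/kg and 0.0304 to 0.0344% at 6 mg/kg. With the share as a covariate the difference from 0 mg/kg was called for 68 genes.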

How the results depend on the processing

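The 7D 6 mg/kg group had 3 tendons, and leaving out tendons in turn moved the counts of higher genes over 557 to 1300, of lower genes over 231 to 673, of higher other genes over 226 to 690 and of lower other genes over 231 to 672, with the lowest values when a 7D tendon was left out and the highest without 21D replicate 3. The difference in time change from 0 mg/kg ranged over 0 to 69 genes and that from 2 mg/kg stayed at 0. A fit of the 8 tendons alone gave 605 higher genes and 332 higher other genes, library size scaling 303 higher other genes, and a fold of at least 1.5 kept 306 of them. With the sarcomere share as a covariate 100 genes were higher and 76 lower, 71 and 19 of them other genes, 68 differed from 0 mg/kg and 2 from 2 mg/kg. With only the 21D tendons of low share 137 were higher and 17 lower, 73 and 16 of them other genes. DESeq2 gave 139 and the likelihood ratio test 131 genes that differed from 0 mg/kg, and DESeq2 gave 1496 genes changed with time at 0 mg/kg, where edgeR gave 672.

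Same-numbered tendons did not deviate together (correlations of -0.105, -0.19 and 0.000766), and they were not paired in the model. So few correlations cannot exclude a processing step shared by number. With a replicate block 1077 genes were higher and 625 lower, 518 and 624 of them other genes, and none differed from 0 mg/kg.

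Named genes changed direction mainly with the covariate: Aldoa (-0.52), Chac1 (-0.12), Des (-0.47), Hpgds (-0.44), Mmp15 (-0.29), Ndufs1 (-0.57), Ndufs7 (-0.52), Pkm (-0.34), Ptgs1 (-0.12), Rpl3l (-0.35), Sox6 (-2.59) and Synpo2 (-1.69). With only the low-share tendons the values were -0.82 for AABR07013651.1, -0.19 for Ndufs1 and 0.20 for Mkx. Ptgs1 was at -0.050 with library size scaling. Leaving out 1 tendon moved Ptgs1 over -0.072 to 0.14, below 0 without 7D replicate 1 or 4 or 21D replicate 1, and Hpgds over -0.034 to 0.31, below 0 without 7D replicate 4. The causes were not tested. Depth at 7 days (12405741 counts in replicate 4) limits fold changes of muscle genes.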

Other observations

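Few genes of energy and protein metabolism were called. In the respiratory chain list 65 of 67 log2 fold changes were above 0, with a median of 0.58. That median was 0.11 with only the 21D tendons of low sarcomere share and -0.34 with the share as a covariate. Of 67 tested nuclear genes of the respiratory chain 6 were higher and none lower, where 8.54% of all genes were higher, and 3 of the 6 were muscle-following, among them Ndufs1 (1.40 ± 0.41, SE) and Ndufs7 (1.12 ± 0.36) of complex I. Ndufs1 had 50.7 to 60.5 CPM at 7 days and 175, 284, 45.8, 167 and 49.8 CPM at 21 days, so its values were higher in the 3 tendons rich in muscle RNA and not in the other 2. The Ndufs1 call was lost without any 7D tendon or 21D replicate 2 (adjusted p up to 0.0931), and that of Ndufs7 when any tendon but 21D replicate 3 or 5 was left out (adjusted p up to 0.15). Aldoa, an enzyme of glycolysis, showed the same split, with 329.8 to 461 CPM at 7 days and 2483, 3263, 433, 1826 and 464 CPM at 21 days. Of 60 cytosolic ribosomal protein genes only Rpl3l, the form used in striated muscle, was higher (7.12 ± 1.35). Genes of the circadian clock (17 tested) held no called gene in edgeR's test and had a median log2 fold change of 0.33. Among 31 genes of folding and secretion in the endoplasmic reticulum 3 were higher and 2 lower, against 8.54% and 4.55% of all genes. Chac1 was at 1.89 ± 0.51 and Herpud1 at 0.55 ± 0.14. Both calls were lost without 7D replicate 1 or 5, and that of Chac1 also without 21D replicate 2 (adjusted p up to 0.0811 and 0.0673). Dhcr7, the last enzyme of cholesterol synthesis, was the only one of 22 cholesterol genes that was lower (-0.99 ± 0.24), with its call lost without 7D replicate 1 (adjusted p = 0.184, edgeR).

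Outside the lists, 3 matrix and sheath genes were picked after their values were seen. Tppp3, known as a marker of tendon sheath cells, had 113, 134 and 183 CPM at 7 days and 559, 448, 390.4, 548 and 563 CPM at 21 days. All 5 tendons at 21 days were more than 2-fold above all 3 at 7 days (1.80 ± 0.21, adjusted p = 2.32e-05 by edgeR's quasi-likelihood test). The increase was as large with the sarcomere share as a covariate (1.77, adjusted p = 0.00235, edgeR) and in the 2 tendons with little muscle RNA (1.73, adjusted p = 0.00277, edgeR). Mgp, which codes for matrix Gla protein, an inhibitor of calcification, went from 334, 607 and 836 CPM to 1476, 1769, 3184, 1414 and 2070 CPM (1.74 ± 0.30, adjusted p = 0.000599, edgeR). Smoc2, a calcium-binding matrix protein, went from 31.3, 69.7 and 34.4 CPM to 129.7, 218, 230.4, 158 and 130.4 CPM (1.95 ± 0.43, adjusted p = 0.00401, edgeR).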
